A study of Homo sapiens with 8 samples.

Results

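The 55 genes described here code for proteins that take a cell into mitosis, build its spindle and kinetochores, hold and release its chromosomes, and divide it. The rule takes them by symbol and uses no measured value, but the list was drawn up with earlier results of these data known. All 55 were found among the 58302 Ensembl gene IDs counted in 8 RNA-seq libraries of Caco-2/15 cells, a clone of the human Caco-2 colon cancer line whose cells begin to resemble the absorptive cells of the gut when left confluent. The series asks what each isoform of the histone variant H2A.Z contributes to gene expression during that process. Its cells were edited with CRISPR-Cas9 so that 1 allele carries a Flag tag, on H2AFZ, which codes for H2A.Z.1 (Z1flag), or on H2AFV, which codes for H2A.Z.2 (Z2flag). The 4 groups were Z1flag cells 7 days after confluence (Pc), subconfluent Z1flag cells (Sc), Z2flag cells 7 days after confluence and subconfluent Z2flag cells, with 2 libraries each. All 4 groups carry a tagged allele, the labels do not say whether a population is 1 clone, and untagged cells were not analysed here.

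As background, a dividing cell switches into mitosis when cyclin B activates CDK1. Microtubules then attach to kinetochores, protein assemblies on the centromere of each chromosome, while the spindle checkpoint holds back the anaphase-promoting complex until every chromosome is attached. Most of the genes involved share a late wave of transcription in G2 and mitosis, in which the DREAM complex represses them in resting cells and the MuvB complex, with B-MYB and FOXM1, activates them in cycling cells. In the intestine such genes are a mark of the dividing crypt, and differentiated enterocytes of the villus no longer divide.

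The members were sorted into 8 roles. These are 10 regulators of entry into mitosis, 8 centromere and kinetochore proteins, 7 proteins of the spindle checkpoint and of cohesion at the centromere, 4 members of the chromosomal passenger complex, 11 spindle proteins and motors, 7 proteins of the spindle midzone and of cell division, 5 proteins of chromosome structure, and 3 of anaphase and exit.

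Gene counts per library ranged from 17063826 to 40881682, and the smallest count of a member in a library was 194, for SPC25. The labels number the duplicates as experiments 1 and 2, called replicates here, and do not say whether these were separate cultures, so the p-values below measure the spread between these samples, which may be technical. Reads overlapping no annotated feature made up 31.4% in postconfluent and 32.0% in subconfluent Z1flag replicate 1, against 20.6% to 24.5% in the other 6 libraries. Of 7 epithelial markers tested 4 were higher and 2, KRT8 and KRT18, were lower after confluence over both lines, and the 8 listed ones summed to 4221 to 7651 CPM in postconfluent and 11187 to 13473 CPM in subconfluent libraries. The epithelial markers EPCAM, CDH1, KRT8, KRT18 and VIL1 were present in every library, whereas KRT20 did not exceed 1.38 CPM (read counts relative to library size, scaled between libraries by TMM) and CDX1 did not exceed 0.189 CPM. Of 10 enterocyte markers tested, 8 were higher after confluence, while FABP2 stayed at or below 0.165 CPM, and the 11 listed markers summed to 1467 to 2383 CPM in postconfluent and 1099 to 1864 CPM in subconfluent libraries. Summed leukocyte and endothelial markers ranged from 35.6 to 38.9 CPM in postconfluent and from 13.4 to 31.8 CPM in subconfluent libraries. After confluence 2 of the 5 tested were higher and 0 lower over both lines, and PTPRC did not exceed 0.0382 CPM in any library. Summed fibroblast markers ranged from 72.2 to 86.9 CPM in postconfluent and from 183 to 233 CPM in subconfluent libraries, and COL1A2 had 0 counts in all 8. Of 5 fibroblast markers tested 1 was higher and 3 were lower after confluence. Their part in the differences below was not tested.

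After confluence the mitotic genes were lower as a group, but unevenly. Over both lines 30 of the 55 members fell and 1, NEK2, rose (edgeR's quasi-likelihood test, Benjamini-Hochberg adjusted p under 0.05 over 18240 genes), against 27.5% of all genes tested that fell and 27.8% that rose. With upper-quartile scaling 6248 genes rose and 3822 fell, where TMM gave 5076 and 5021, and the members' counts were 2 and 27. The median member changed by -0.61 on the log2 scale and the median gene by -0.01. Within Z1flag cells 30 members fell and 0 rose, against 19.1% and 21.3% of all genes, with a member median of -0.87 and a gene median of 0.04. At an unadjusted p under 0.05, 32 of the 55 members and 9078 of the 18240 genes passed in that line. Within Z2flag cells 18 fell and 1, again NEK2, rose, against 19.3% and 18.3% of all genes, with a member median of -0.41 and a gene median of -0.05. With all 8 libraries the share of members that fell exceeded the share of all genes in each line, and the share that rose was below it. All 18 members that fell in Z2flag cells also fell in Z1flag cells. The Z2flag count of 18 was 6 without postconfluent Z2flag replicate 1 and 7 without postconfluent replicate 2, against 8.63% and 10.0% of all genes that fell in the same fits. It was 10 without subconfluent Z2flag replicate 1 and 5 without subconfluent replicate 2, against 9.18% and 8.13% of all genes, so that in 3 of these 4 fits the share of the 55 members was near that of all genes. The Z1flag count of 30 was 19 without subconfluent Z1flag replicate 1, against 9.86% of all genes. The call was lost on leaving out at least 1 single library for 12 of the 30 members that fell in Z1flag cells, 14 of the 18 in Z2flag cells and 7 of the 30 over both lines. The change was at least 2-fold over both lines in 13 of the 30 members that fell. In these bulk libraries, fewer cells in mitosis and less of each transcript per cell cannot be told apart.

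The separation of the states was also counted library by library. In 33 of the 55 members every postconfluent library was below every subconfluent one, against 26.1% of all genes, and in 0 members was every postconfluent library above, against 25.1%. Within Z1flag cells 39 members were lower without overlap and 0 higher, against 33.5% and 35.1% of all genes. Within Z2flag cells 38 were lower and 6 higher without overlap, against 41.2% and 36.3%. The 6 higher ones were CDC25C, NEK2, CENPA, AURKB, UBE2C and PTTG1.

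1 library had a large weight in these values. In postconfluent Z1flag replicate 1 all 55 members lay below both subconfluent Z1flag libraries, against 42.8% of all genes, and the median member lay at -1.33 on the log2 scale relative to the subconfluent mean. The same median was -0.46 in postconfluent Z1flag replicate 2, -0.40 in postconfluent Z2flag replicate 1 and -0.43 in postconfluent Z2flag replicate 2. In these 3 libraries 39, 42 and 41 members lay below both subconfluent libraries of their line, against 44.7%, 49.5% and 48.1% of all genes. Above both lay 14, 8 and 9 members, against 44.3%, 43.5% and 44.4%. Without postconfluent Z1flag replicate 1, 27 members fell and 8 rose over both lines, against 28.0% and 30.6% of 18864 genes, and the member median was -0.31. The 8 were NCAPD2, CENPA, NEK2, CDC25C, PTTG1, UBE2C, AURKB and KIFC1, and they also rose within Z1flag cells, beside 25 that fell, against 20.8% and 18.7% of all genes. Without postconfluent Z1flag replicate 2, 48 members fell and 1, NEK2, rose over both lines, against 27.1% and 30.7% of all genes, and 50 fell and 0 rose within Z1flag cells, against 21.0% and 23.6%.

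**Figure D1:**
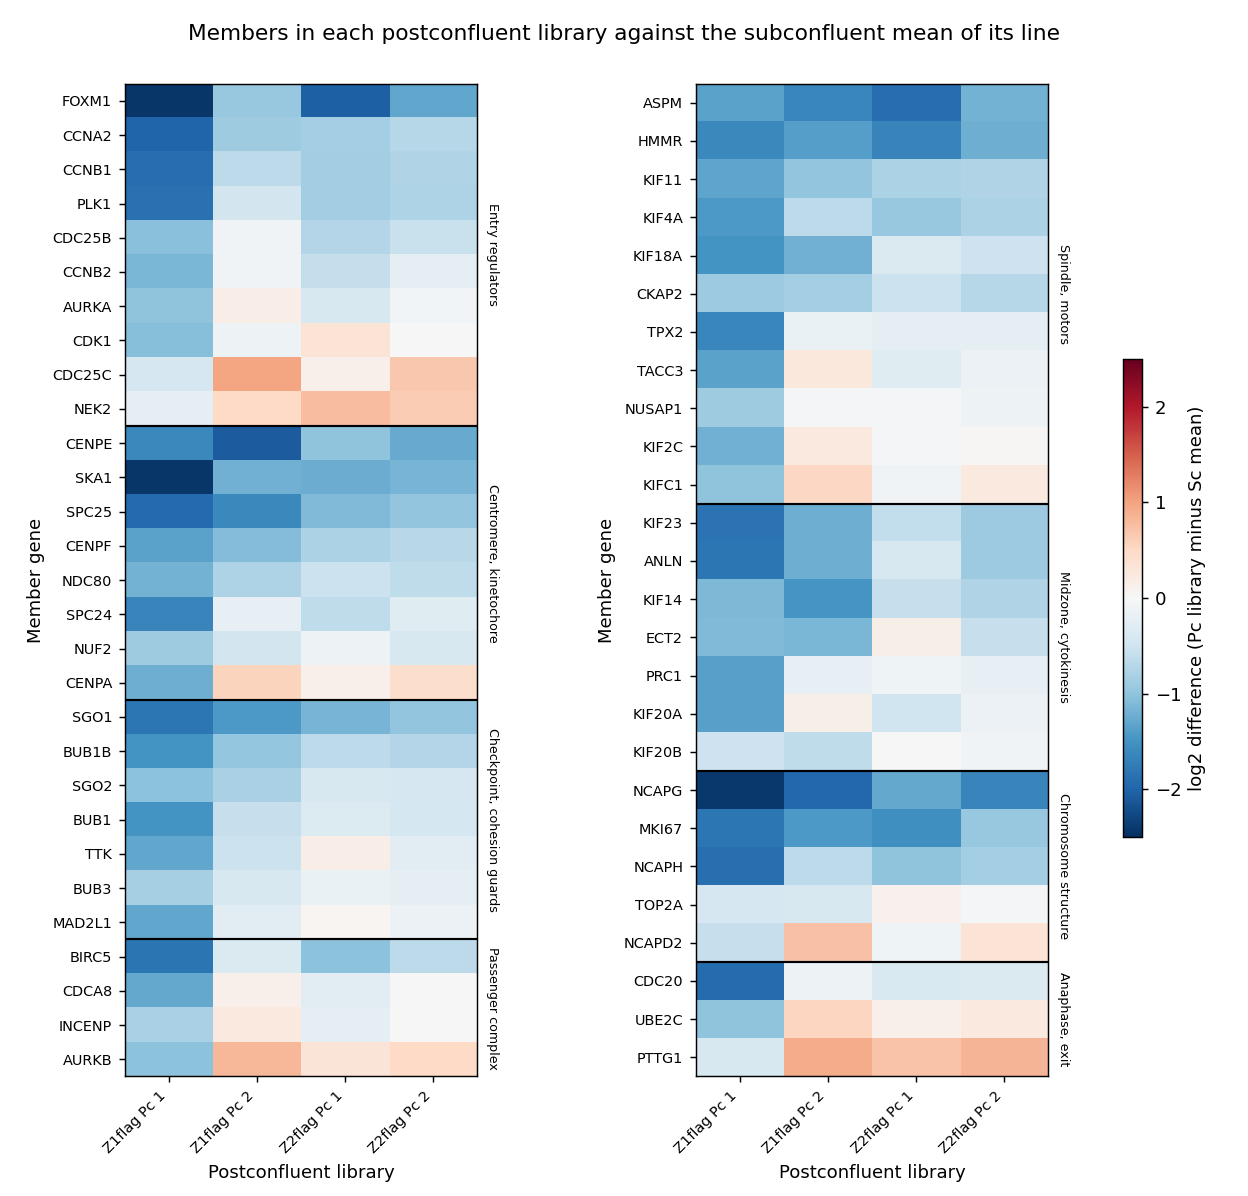
Colour gives the difference in log2 CPM of each member (rows, grouped by role) in each postconfluent library (columns) from the mean of the 2 subconfluent libraries of its line, with blue for lower and red for higher. The column of Z1flag Pc 1 is blue throughout, from -2.44 for FOXM1 to -0.23 for NEK2. The other 3 columns hold red cells among the entry, passenger and exit genes and also in other roles, such as CENPA, NCAPD2, KIFC1, ECT2 and TTK.

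The promoters of the members were read for the letters through which the late cell cycle wave is known to be controlled. RefSeq promoter windows of GRCh38.p14, from 250 bases before to 50 after a gene start, were matched by symbol for 48 of the 55 members (59 windows). TPX2, UBE2C, AURKA, TTK, FOXM1, BIRC5 and BUB3 were not matched. The cell cycle genes homology region (CHR) was searched as TTTGAA and also in its rarer form TTCGAA, while the other element searched was the CCAAT box, each on both strands and with overlaps between motifs allowed. A CHR was present in 38 of 59 member windows (64.4%) and in 16.4% of all 35116 windows, and with TTTGAA alone in 59.3% and 15.2%. In the last 100 bases before the start, a CHR was present in 32.2% of member windows and 4.92% of all windows. CCAAT boxes were present in 74.6% of member windows and 34.6% of all windows. In bins of 25 bases the CCAAT share of member windows peaked at 45.8% in the bin centred at -62.5 bases from the start, where all windows had 7.62%. The CHR share peaked at 20.3% in the bin centred at -12.5 bases from the start, where all windows had 1.26%.

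**Figure D2:**
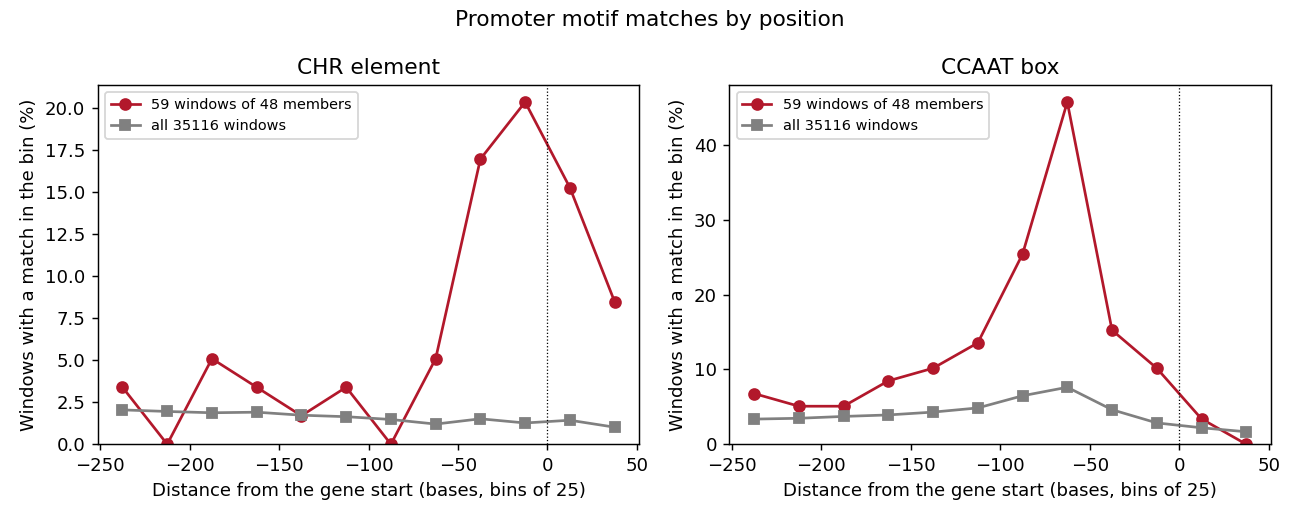
Share of promoter windows (vertical axis, %) with a CHR (left) or a CCAAT box (right) starting in each bin of 25 bases, by distance from the gene start (horizontal axis, bases). The 59 member windows (red) peak just before the start, at 20.3% for the CHR and, further upstream, at 45.8% for the CCAAT box, while all 35116 windows (grey) stay below 8% for both.

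The 100 bases before the start are printed for 6 members that have a single window and a CHR within those bases, to set promoters of genes with unlike changes beside each other. NCAPG, HMMR and MKI67 had the smallest and CDCA8, INCENP and CENPA the largest p over both lines among such members, so the choice used measured values. Capitals mark the letters of both elements, where TTTGAA is the CHR in each of these windows and a CCAAT box can also read ATTGG, from the other strand. The windows lie at chr4:17810879-17810978, chr5:163460532-163460631, chr1:37692416-37692515, chr11:62123911-62124010 and chr2:26785956-26786055 on the plus strand, and at chr10:128126424-128126523 on the minus strand.
NCAPG: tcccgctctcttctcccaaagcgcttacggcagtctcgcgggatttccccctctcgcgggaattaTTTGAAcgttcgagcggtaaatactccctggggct
HMMR: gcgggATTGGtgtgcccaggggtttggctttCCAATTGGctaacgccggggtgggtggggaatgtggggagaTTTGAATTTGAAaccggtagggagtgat
MKI67: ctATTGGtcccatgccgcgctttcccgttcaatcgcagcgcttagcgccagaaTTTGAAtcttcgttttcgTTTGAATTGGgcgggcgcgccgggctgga
CDCA8: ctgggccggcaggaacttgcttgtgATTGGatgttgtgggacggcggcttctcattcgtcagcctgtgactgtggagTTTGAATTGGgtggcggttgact
INCENP: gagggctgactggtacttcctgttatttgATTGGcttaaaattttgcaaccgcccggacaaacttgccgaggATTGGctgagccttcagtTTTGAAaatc
CENPA: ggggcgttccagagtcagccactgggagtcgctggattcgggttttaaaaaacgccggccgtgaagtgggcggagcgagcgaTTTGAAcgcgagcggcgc
The HMMR window holds a pair of adjacent CHR copies and the MKI67 window a pair set apart, while the other 4 hold 1 CHR each. In the MKI67 and CDCA8 windows a CHR runs straight into an ATTGG. Among the members matched, the 35 with a CHR in any window had a median log2 change over both lines of -0.67, with 21 that fell and 0 that rose. The 13 without one had a median of -0.61, with 6 that fell and 1 that rose. Both sets ran over wide ranges, from -1.81 to 0.43 with a CHR and from -1.49 to 0.60 without. Of all genes tested, 27.5% fell and 27.8% rose over both lines. Members with more than 1 window had more chances of a match.

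Of the 10 regulators of entry into mitosis, 5 fell and 1 rose over both lines, 4 fell within Z1flag cells, and 1 fell and 1 rose within Z2flag cells (median over both -0.52). Beside the counts by role and by further list given here and below, 27.5% of all genes fell and 27.8% rose over both lines. Within Z1flag cells 19.1% of all genes fell and 21.3% rose, and within Z2flag cells 19.3% fell and 18.3% rose. FOXM1, the transcription factor of the late cell cycle wave, had 40.01 and 113 CPM in postconfluent Z1flag replicates 1 and 2, against 228 and 207 CPM in subconfluent ones. In Z2flag cells it had 55.96 and 94.01 CPM after confluence and 235 and 228 CPM before. All 4 postconfluent libraries were below all 4 subconfluent ones, and FOXM1 fell by 1.57 on the log2 scale over both lines (SE 0.29, edgeR adjusted p = 0.0013). It fell in each line, with log2 fold changes of -1.51 in Z1flag (adjusted p = 0.0156) and -1.63 in Z2flag cells (adjusted p = 0.0124). The Z1flag call was lost without either subconfluent Z1flag library or without both Z1flag replicate 1 libraries, and the Z2flag call on leaving out any 1 Z2flag library other than postconfluent replicate 2. CCNB1, cyclin B1, had 98.3 and 233 CPM in postconfluent and 359 and 378 CPM in subconfluent Z1flag libraries, and 206 and 224 CPM in postconfluent and 367 and 390.0 CPM in subconfluent Z2flag libraries. The states did not overlap, and CCNB1 changed by -0.99 on the log2 scale over both lines (SE 0.23, edgeR adjusted p = 0.00477). In single lines it passed in Z1flag (adjusted p = 0.0187) and not in Z2flag cells (adjusted p = 0.0725). The Z1flag call was lost without either subconfluent Z1flag library and with only the Z1flag libraries fitted.

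CDK1, the kinase that cyclin B1 activates, did not pass. It had 205 and 392 CPM in postconfluent and 420.1 and 438 CPM in subconfluent Z1flag libraries. In Z2flag cells it had 525 and 416 CPM after and 408 and 423 CPM before confluence, so the states overlapped and postconfluent Z2flag replicate 1 had the highest value of the 8. Its log2 fold change over both lines was -0.17 (SE 0.20, edgeR adjusted p = 0.478), and it passed in neither line. The change over both lines was 0.09 without postconfluent Z1flag replicate 1 and -0.40 without replicate 2. NEK2, a kinase that separates centrosomes, had 40.9 and 67.3 CPM in postconfluent and 46.9 and 49.01 CPM in subconfluent Z1flag libraries, against 84.3 and 76.6 CPM in postconfluent and 49.6 and 49.6 CPM in subconfluent Z2flag libraries. It is described because it was the 1 member that rose, a choice made after its values were seen. It was lowest of all in postconfluent Z1flag replicate 1 and higher in the other 3 postconfluent libraries than in any subconfluent one, and it rose by 0.44 on the log2 scale over both lines (SE 0.16, edgeR adjusted p = 0.0448). That call was lost in limma voom, with a replicate block, with no filter on low counts, and on leaving out any 1 of the 6 libraries other than the postconfluent Z1flag duplicates. Of the other entry regulators, cyclin A2 (CCNA2), the Polo-like kinase PLK1 and the phosphatase CDC25B, which activates CDK1, fell over both lines (log2 fold changes -1.07, -0.92 and -0.57). The PLK1 call was lost without postconfluent Z2flag replicate 1. The CDC25B call was lost with upper-quartile scaling, with CPM of at least 5, without both Z1flag replicate 1 libraries and on leaving out any 1 library other than postconfluent Z1flag replicate 2 and subconfluent Z2flag replicate 1. Cyclin B2 (CCNB2), the centrosome kinase AURKA and the phosphatase CDC25C did not pass (-0.47, -0.26 and 0.43).

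Of 15 further genes of the switch into and out of mitosis, 8 fell and 3 rose over both lines, with a median of -0.54. CDC25A, a phosphatase that activates cyclin-dependent kinases, had 9.95 to 23.9 CPM in the 4 postconfluent and 90.0 to 95.4 CPM in the 4 subconfluent libraries, and fell by 2.21 on the log2 scale (SE 0.23, edgeR adjusted p = 5.03e-05). CCNB3, a cyclin best known from meiosis, fell at a low level, with 0.241 to 0.567 CPM in postconfluent against 1.50 to 1.83 CPM in subconfluent libraries. CKS2, a subunit of the CDK1 complex, rose over both lines by 0.79 on the log2 scale (SE 0.26, edgeR adjusted p = 0.0243), with 34.2 CPM in postconfluent Z1flag replicate 1 below every subconfluent library. The other 3 postconfluent values, 91.8 to 103.7 CPM, were above them all.

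**Figure D3:**
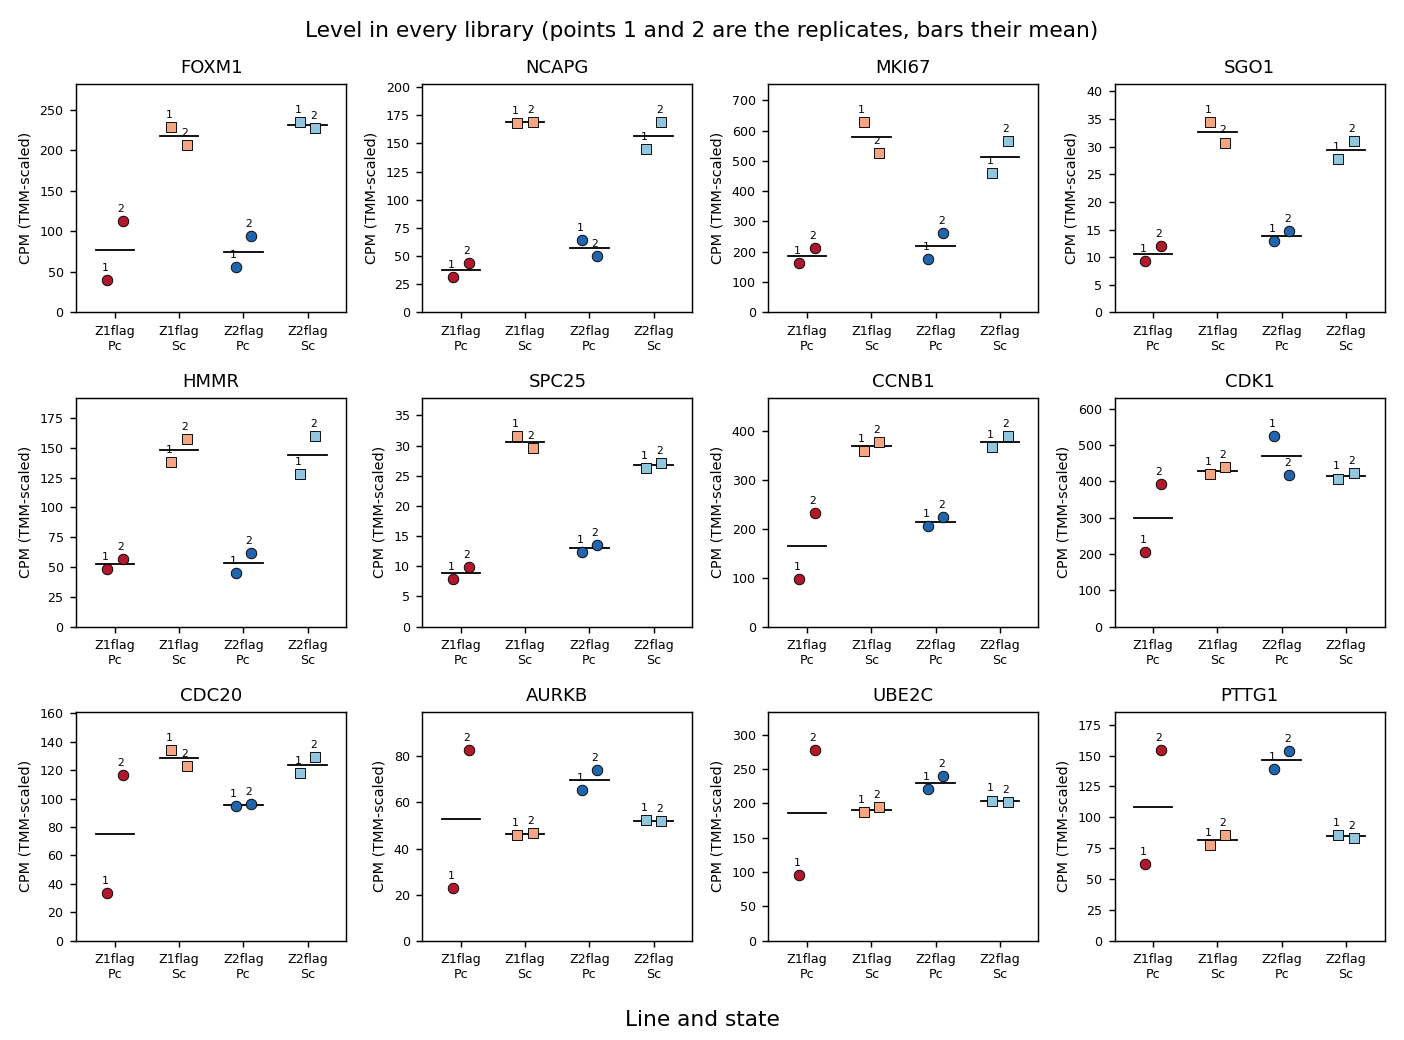
Level of 12 members in CPM (vertical axes, from 0) in each group (horizontal axes); points are libraries, numbered by replicate, and bars their means. In FOXM1 to CCNB1 every postconfluent point (circles) lies below every subconfluent point (squares), whereas in AURKB, UBE2C and PTTG1 only Z1flag Pc 1 lies below the subconfluent points and the other 3 postconfluent points lie above them.

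Of the 8 centromere and kinetochore members, 6 fell over both lines, 6 within Z1flag and 5 within Z2flag cells, with a median log2 change of -0.89 over both. SPC25, a subunit of the NDC80 complex that grips microtubules, had 7.90 and 9.90 CPM in postconfluent and 31.6 and 29.6 CPM in subconfluent Z1flag libraries, and 12.4 and 13.5 CPM in postconfluent and 26.3 and 27.1 CPM in subconfluent Z2flag libraries. The states were far apart in both lines, and SPC25 changed by -1.41 on the log2 scale (SE 0.15, edgeR adjusted p = 5.03e-05). CENPE, the kinesin that carries chromosomes to the middle of the spindle, had 48.3 and 34.9 CPM after and 162 and 134 CPM before confluence in Z1flag cells, and 56.2 and 46.7 CPM after and 91.8 and 138 CPM before in Z2flag cells. It fell in each line (log2 fold changes -1.83 in Z1flag and -1.16 in Z2flag cells, edgeR adjusted p = 0.000704 and 0.00622), and the Z2flag call was lost without postconfluent or without subconfluent Z2flag replicate 2. CENPE was 1 of the 6 members that were not lowest in postconfluent Z1flag replicate 1 among the 4 postconfluent libraries. SKA1, which helps kinetochores follow shrinking microtubules, the outer kinetochore protein CENPF, and NDC80 and NUF2, which form the microtubule-binding end of the NDC80 complex, also fell over both lines (log2 fold changes -1.45, -0.997, -0.78 and -0.46), and SPC24, the partner of SPC25, did not pass (-0.61, adjusted p = 0.0703). The NUF2 call was lost with upper-quartile scaling, with CPM of at least 5, without both Z1flag replicate 1 libraries and on leaving out any 1 library other than postconfluent Z1flag replicate 2 and postconfluent Z2flag replicate 1.

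CENPA, the histone H3 variant that marks the centromere, did not pass with all libraries. It had 11.01 and 37.9 CPM in postconfluent and 26.04 and 25.2 CPM in subconfluent Z1flag libraries, and 26.5 and 32.8 CPM in postconfluent and 22.4 and 25.9 CPM in subconfluent Z2flag libraries. The lowest and the highest of its 8 values were the postconfluent Z1flag duplicates, and its log2 fold change over both lines was 0.11 (SE 0.31, edgeR adjusted p = 0.771). Without postconfluent Z1flag replicate 1 it rose by 0.49 (adjusted p = 0.00983), and without replicate 2 it fell by 0.42 (adjusted p = 0.0261). CENPA shares 138 exonic bases with SLC35F6 on the same strand, so that reads there may be lost to both genes.

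The rest of the kinetochore was counted from other lists. Of 17 genes of the inner kinetochore network and of CENPA loading, 11 fell and 0 rose over both lines (edgeR; median log2 change -1.08), and of 14 further outer kinetochore genes 11 fell and 0 rose (median -1.03), beside a gene median of -0.01. CENPP, an inner kinetochore subunit, had 2.21 to 4.03 CPM in the 4 postconfluent and 12.1 to 14.3 CPM in the 4 subconfluent libraries. CENPK of the same network had 15.1 to 28.8 CPM in postconfluent and 58.2 to 68.3 CPM in subconfluent libraries. SPDL1, which recruits dynein to kinetochores, had 16.8 to 20.8 CPM in postconfluent and 86.5 to 94.4 CPM in subconfluent libraries. DSN1, of the MIS12 complex, had 22.3 to 31.8 CPM in postconfluent and 73.1 to 81.2 CPM in subconfluent libraries. All 4 fell in each line and without overlap of the states, with SPDL1 furthest down (log2 fold change -2.30, SE 0.13, edgeR adjusted p = 3.42e-06).

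Among the 7 checkpoint and cohesion genes, 5 fell over both lines, 6 within Z1flag and 2 within Z2flag cells (median over both -0.67). Of all genes, 19.3% fell within Z2flag cells. SGO1, shugoshin, protects cohesion at centromeres and had 9.30 and 11.9 CPM in postconfluent and 34.5 and 30.8 CPM in subconfluent Z1flag libraries. In Z2flag cells it had 13.01 and 14.8 CPM after and 27.8 and 30.98 CPM before confluence, a decrease in each line (log2 fold changes -1.62 in Z1flag and -1.08 in Z2flag cells, edgeR adjusted p = 0.000584 and 0.00408), of which the Z2flag one was lost without subconfluent Z2flag replicate 2. MAD2L1, the inhibitor that the checkpoint makes, had 38.95 and 79.2 CPM in postconfluent and 95.1 and 97.4 CPM in subconfluent Z1flag libraries, but 98.5 and 86.4 CPM in postconfluent and 93.7 and 96.7 CPM in subconfluent Z2flag libraries. Its values overlapped between states in Z2flag cells. In the main fit with all libraries MAD2L1 passed in no comparison (log2 fold change -0.37 over both lines, SE 0.20, edgeR adjusted p = 0.136). That change was -0.10 without postconfluent Z1flag replicate 1 and -0.63 without replicate 2. Of the others, BUB1B, which binds CDC20 in the checkpoint complex, the kinase BUB1, the shugoshin SGO2 and BUB3, which docks BUB proteins at kinetochores, fell over both lines (log2 fold changes -0.95, -0.67, -0.68 and -0.41). The BUB1 call was lost without postconfluent Z2flag replicate 2. The BUB3 call was lost with RLE and upper-quartile scaling, with CPM of at least 5, without both Z1flag replicate 1 libraries and on leaving out any 1 library other than postconfluent Z1flag replicate 2. TTK, the kinase at the head of the checkpoint, passed in Z1flag cells alone (-0.87 there, adjusted p = 0.0274, and -0.05 in Z2flag cells, adjusted p = 0.893), a difference between lines that did not pass its own test (adjusted p = 0.799). The Z1flag call of TTK was lost with upper-quartile scaling, with only the Z1flag libraries fitted, without both Z1flag replicate 1 libraries and on leaving out any 1 Z1flag library other than postconfluent replicate 2.

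The chromosomal passenger complex, which corrects faulty attachments and later guides division, had 1 of its 4 members fall over both lines and 0 in either line alone (edgeR, median over both -0.21). The count of 1 in 4 was near the 27.5% of all genes that fell over both lines. Without postconfluent Z1flag replicate 1 the median over both was 0.096, and without replicate 2 it was -0.55. BIRC5, survivin, had 45.9 and 127 CPM in postconfluent and 158 and 169 CPM in subconfluent Z1flag libraries, and 83.1 and 108 CPM in postconfluent and 167 and 171 CPM in subconfluent Z2flag libraries. It fell over both lines by 0.88 on the log2 scale (SE 0.26, edgeR adjusted p = 0.0169) and was lower in 4 of 4 postconfluent libraries, a call that was lost without subconfluent Z1flag replicate 2 or without postconfluent Z2flag replicate 1. AURKB, the kinase of the complex, had 22.8 and 82.7 CPM in postconfluent and 45.9 and 46.8 CPM in subconfluent Z1flag libraries, and 65.5 and 73.9 CPM in postconfluent and 52.3 and 51.8 CPM in subconfluent Z2flag libraries. Postconfluent Z1flag replicate 1 held the lowest of the 8 values, and the other 3 postconfluent values were the highest. Its log2 fold change over both lines was 0.30 (SE 0.31, edgeR adjusted p = 0.423). Without postconfluent Z1flag replicate 1 that change was 0.69, and without replicate 2 it was -0.26. INCENP, the scaffold, had 50.5 and 105 CPM in postconfluent and 92.4 and 84.7 CPM in subconfluent Z1flag libraries, and 79.6 and 93.3 CPM in postconfluent and 98.3 and 89.7 CPM in subconfluent Z2flag libraries, with the states overlapping (log2 fold change -0.16, adjusted p = 0.545). CDCA8, borealin, did not pass either (-0.27, edgeR adjusted p = 0.388). The changes of INCENP and CDCA8 over both lines were 0.13 and 0.07 without postconfluent Z1flag replicate 1. Without replicate 2 they were -0.43 and -0.67.

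Among the 11 spindle proteins, 6 fell over both lines, 6 within Z1flag and 5 within Z2flag cells (median over both -0.76). HMMR, a microtubule protein of the spindle poles, had 48.1 and 56.5 CPM in postconfluent and 138 and 158 CPM in subconfluent Z1flag libraries, and 44.99 and 61.5 CPM in postconfluent and 128 and 160.0 CPM in subconfluent Z2flag libraries. ASPM, which focuses spindle poles, had 163 and 133 CPM after and 439 and 383 CPM before confluence in Z1flag cells, and 88.5 and 146 CPM after and 279.7 and 395 CPM before in Z2flag cells. Both fell in each line, with log2 fold changes of -1.50 in Z1flag and -1.43 in Z2flag cells for HMMR and -1.47 and -1.52 for ASPM (edgeR adjusted p over both lines 5.29e-05 and 0.00016). KIF18A, a kinesin that limits microtubule length at kinetochores, had 23.9 and 29.2 CPM in postconfluent and 70.97 and 63.9 CPM in subconfluent Z1flag libraries, and 40.8 and 36.6 CPM in postconfluent and 44.8 and 60.6 CPM in subconfluent Z2flag libraries. It fell over both lines (a log2 change of -0.90, SE 0.15, edgeR adjusted p = 0.00071). In single lines KIF18A passed in Z1flag (-1.35, edgeR adjusted p = 0.00125) and not in Z2flag cells (-0.45, adjusted p = 0.1215).

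KIFC1, a motor that bundles the minus ends of microtubules, had 32.5 and 94.2 CPM in postconfluent and 65.8 and 64.96 CPM in subconfluent Z1flag libraries, and 66.2 and 83.2 CPM in postconfluent and 70.8 and 69.6 CPM in subconfluent Z2flag libraries. Its postconfluent values spanned the subconfluent ones in both lines (log2 fold change 0.02 over both, SE 0.27, edgeR adjusted p = 0.956). It rose by 0.37 without postconfluent Z1flag replicate 1 (adjusted p = 0.0203) and fell by 0.42 without replicate 2 (adjusted p = 0.0126). Of the others, KIF11, the motor that pushes the poles apart, the chromosome-bound kinesin KIF4A and the microtubule protein CKAP2 fell over both lines (log2 fold changes -0.96, -0.93 and -0.76). TPX2, which activates Aurora A, the spindle proteins TACC3 and NUSAP1, and the depolymerising kinesin KIF2C did not pass (-0.48, -0.28, -0.24 and -0.15). Of 31 further centrosome and spindle genes, 17 fell and 1, HAUS4, rose over both lines (median -0.57). CEP55, which acts at the final cut between daughter cells, had 33.4 to 86.8 CPM in postconfluent and 153 to 273 CPM in subconfluent libraries, and the microtubule-stabilising CLASP2 had 45.8 to 59.1 CPM in postconfluent and 105 to 142 CPM in subconfluent libraries. HAUS4, of the augmin complex that branches microtubules, had 33.7 to 48.8 CPM in postconfluent and 18.1 to 23.4 CPM in subconfluent libraries (a log2 change of 0.94, SE 0.17, edgeR adjusted p = 0.000995).

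Of the 7 genes of the midzone and of cell division, 4 fell over both lines, 5 within Z1flag and 2 within Z2flag cells (median over both -0.65). The share of all genes that fell within Z2flag cells was 19.3%. KIF23, a motor of the centralspindlin complex, had 48.7 and 75.5 CPM in postconfluent and 181 and 171 CPM in subconfluent Z1flag libraries, and 104 and 84.9 CPM in postconfluent and 150.2 and 168 CPM in subconfluent Z2flag libraries. It fell in each line, with log2 fold changes of -1.50 in Z1flag and -0.76 in Z2flag cells (edgeR adjusted p = 0.00115 and 0.0278). The Z2flag call was lost with upper-quartile scaling and on leaving out any 1 of the 4 Z2flag libraries. ECT2, the exchange factor that starts furrowing, had 163 and 159 CPM in postconfluent and 383 and 321 CPM in subconfluent Z1flag libraries, and 309 and 188 CPM in postconfluent and 246 and 317 CPM in subconfluent Z2flag libraries. The states were apart in Z1flag cells and overlapped in Z2flag cells (log2 fold changes -1.13 and -0.18, edgeR adjusted p = 0.00688 and 0.607). Its Z1flag call was lost without subconfluent Z1flag replicate 1, its call over both lines without postconfluent or without subconfluent Z2flag replicate 2, and both calls without both Z1flag replicate 1 libraries. KIF20A, a motor that brings the passenger complex to the midzone, had 70.4 and 200.4 CPM in postconfluent and 171 and 192 CPM in subconfluent Z1flag libraries. In Z2flag cells it had 139 and 177 CPM in postconfluent and 189.8 and 202 CPM in subconfluent libraries. In the main fit with all libraries it passed in no comparison (log2 fold change -0.37 over both lines, edgeR adjusted p = 0.265). That change was -0.02 without postconfluent Z1flag replicate 1 and -0.80 without replicate 2. ANLN, the scaffold of the contractile ring, and the midbody kinesin KIF14 fell over both lines (log2 fold changes -1.06 and -0.99), PRC1, which bundles midzone microtubules, did not pass (-0.41), and the kinesin KIF20B passed in Z1flag cells alone (-0.58, adjusted p = 0.045). That KIF20B call was lost on leaving out any 1 of the 8 libraries, without both Z1flag replicate 1 libraries, with upper-quartile scaling, with CPM of at least 5, with a replicate block and with only the Z1flag libraries fitted.

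Of the 5 genes of chromosome structure, 3 fell over both lines and in each line, and they include the strongest decrease of the 55 over both lines, that of NCAPG (median over both -1.04). NCAPG, a condensin subunit on chromosome 4 at 17810902 to 17844862 (GRCh38, plus strand), had 31.5 and 43.5 CPM in postconfluent and 168 and 169 CPM in subconfluent Z1flag libraries, and 64.2 and 50.1 CPM in postconfluent and 145 and 169 CPM in subconfluent Z2flag libraries. Its log2 fold change was -1.81 over both lines (SE 0.16, edgeR adjusted p = 1.93e-05), -2.17 in Z1flag and -1.46 in Z2flag cells. MKI67, the Ki-67 protein that coats mitotic chromosomes and is the standard stain for cycling cells, had 164 and 211 CPM in postconfluent and 629 and 526 CPM in subconfluent Z1flag libraries, and 175 and 263 CPM in postconfluent and 458 and 566 CPM in subconfluent Z2flag libraries. It too fell in each line, and over both by 1.42 on the log2 scale (SE 0.18, edgeR adjusted p = 0.000126), and its Z2flag call was lost without postconfluent Z2flag replicate 1.

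NCAPD2, another subunit of the same condensin as NCAPG, had 284 and 700.2 CPM in postconfluent and 414 and 434 CPM in subconfluent Z1flag libraries, and 433 and 590.2 CPM in postconfluent and 479 and 457 CPM in subconfluent Z2flag libraries. Its postconfluent values lay on both sides of the subconfluent ones in both lines (log2 fold change 0.17 over both, SE 0.25, edgeR adjusted p = 0.574). NCAPH, of the same condensin too, fell (-1.04, adjusted p = 0.00347), with a Z1flag call lost without either subconfluent Z1flag library and with only the Z1flag libraries fitted. Its Z2flag call was lost on leaving out any 1 library other than the postconfluent Z1flag duplicates, with RLE and upper-quartile scaling and with CPM of at least 5. TOP2A, the topoisomerase that untangles sister chromatids, did not pass (-0.20, adjusted p = 0.231). Of 17 further cohesin and condensin genes, 12 fell and 0 rose over both lines (median -0.80). ESCO2, which acetylates cohesin, had 11.8 to 17.7 CPM in postconfluent and 44.4 to 57.9 CPM in subconfluent libraries, and the condensin core subunit SMC2 had 56.8 to 67.6 CPM in postconfluent and 141 to 199 CPM in subconfluent libraries.

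In the main fit with all libraries, the 3 genes of anaphase and exit were the role with no member that fell in any of these 3 comparisons (edgeR adjusted p under 0.05). A count of 0 in 3 is little to go by beside the 27.5% of all genes that fell over both lines. CDC20, the activator of the anaphase-promoting complex that the checkpoint restrains, had 33.8 and 117 CPM in postconfluent and 134 and 123 CPM in subconfluent Z1flag libraries, and 94.7 and 96.4 CPM in postconfluent and 118 and 129 CPM in subconfluent Z2flag libraries. All 4 postconfluent values were below the subconfluent ones, but postconfluent Z1flag replicate 1 was far below the other 3. The log2 fold change over both lines of -0.57 did not pass (SE 0.30, edgeR adjusted p = 0.127). That change was -0.19 without postconfluent Z1flag replicate 1 and -1.11 without replicate 2. UBE2C, the ubiquitin-conjugating enzyme of that complex, had 95.3 and 278 CPM in postconfluent and 187 and 195 CPM in subconfluent Z1flag libraries, and 220.4 and 239 CPM in postconfluent and 204 and 202 CPM in subconfluent Z2flag libraries. PTTG1, securin, the inhibitor of separase, had 62.1 and 154 CPM in postconfluent and 77.9 and 85.6 CPM in subconfluent Z1flag libraries, and 139 and 153 CPM in postconfluent and 85.96 and 83.1 CPM in subconfluent Z2flag libraries. In both genes postconfluent Z1flag replicate 1 was the lowest of the 8 libraries and the other 3 postconfluent libraries were the highest.

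With all libraries UBE2C changed by 0.07 (SE 0.27, edgeR adjusted p = 0.8288) and PTTG1 by 0.60 (SE 0.24, adjusted p = 0.0538) on the log2 scale over both lines. With RLE or upper-quartile scaling, DESeq2, CPM of at least 5 or no filter on low counts, PTTG1 passed over both lines and UBE2C did not. Without postconfluent Z1flag replicate 1 both rose, by 0.42 (adjusted p = 0.00631) and 0.92 (adjusted p = 7.86e-05). UBE2C fell by 0.37 without replicate 2 instead (adjusted p = 0.0139). Of the 17 genes of the anaphase-promoting complex itself and its regulators, 8 fell and 0 rose over both lines, with a median of -0.38. ANAPC1, a scaffold subunit, had 69.1 to 81.4 CPM in postconfluent and 189.8 to 212 CPM in subconfluent libraries, and ANAPC7 had 17.7 to 20.9 CPM in postconfluent and 54.7 to 58.4 CPM in subconfluent libraries, with no overlap of the states in either gene.

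The lines were compared directly in 1 model. For the difference between the confluence change in Z1flag and that in Z2flag cells, 0 members passed, against 0.0% of all genes (edgeR, smallest adjusted p of a member 0.799). At an unadjusted p under 0.05, 6 members and 902 of all genes were below it. The difference was negative in 50 of the 55 members, with a median of -0.39 beside 0.07 for all genes. A negative difference means a larger decrease or a smaller rise in Z1flag than in Z2flag cells. The smallest p in edgeR belonged to KIF18A, with a difference of -0.90 (SE 0.30, adjusted p = 0.799). ECT2 came next with -0.95 (SE 0.36, edgeR adjusted p = 0.799), then SPC25 with -0.74 (SE 0.30, edgeR adjusted p = 0.799). A total of 12 members passed in Z1flag and not in Z2flag cells, but none of these differences between lines passed its own test. The 12 were CCNA2, CCNB1, PLK1, NUF2, BUB1, BUB3, SGO2, TTK, KIF18A, KIF20B, ANLN and ECT2. Z1flag and Z2flag cells were also compared within each state. After confluence 0 members passed, against 0.0% of all genes (edgeR, smallest adjusted p of a member 0.6375), with a member median of -0.31. At an unadjusted p under 0.05 there were 11 of the 55 members and 1308 of the 18240 genes. In subconfluent cells 0 passed, against 0.0% of all genes (smallest adjusted p 1), with 0 at an unadjusted p under 0.05 and a median of 0.04. Of the 18240 genes, 195 were at an unadjusted p under 0.05 in the subconfluent comparison. DESeq2 also called 0 members in these 3 comparisons.

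The difference between lines moved with 1 library. Without postconfluent Z1flag replicate 2, which leaves replicate 1 alone in its group, 15 members passed for the difference of the changes, against 0.71% of all genes, and 37 were lower in postconfluent Z1flag than in postconfluent Z2flag cells, against 6.02% of all genes, with 0 higher, against 5.32%. Without postconfluent Z1flag replicate 1, 0 members passed in either comparison (edgeR, 5 and 0 at an unadjusted p under 0.05), and the median differences were -0.11 between the changes and -0.05 between the postconfluent groups.

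**Figure D4:**
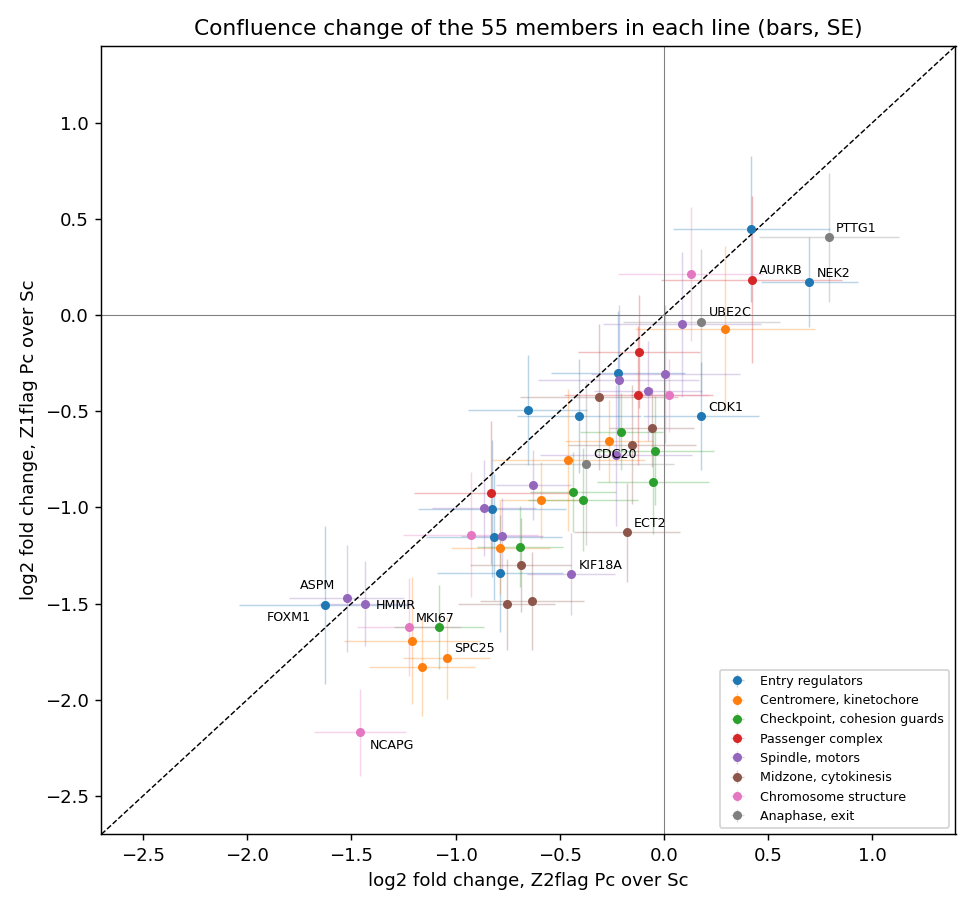
Log2 fold change from confluence of each of the 55 members in Z2flag cells (horizontal axis) and in Z1flag cells (vertical axis), coloured by role, with bars of 1 SE and the line of equal change dashed. Of the 55 points 50 lie below the dashed line, and no single departure passed the edgeR test (smallest adjusted p 0.799). The median difference was -0.39 with all libraries and -0.11 without postconfluent Z1flag replicate 1.

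Postconfluent Z1flag replicate 1 was set against the other 3 postconfluent libraries, member by member. It had the lowest CPM of the 4 in 49 of the 55 members, against 35.3% of all genes, and the highest in 1, ASPM. The members furthest below the mean of the other 3 in log2 CPM were AURKB (-1.69), CDC20 (-1.59) and CENPA (-1.54), and those above it were ASPM (0.45), KIF14 (0.10) and CENPE (0.10). Among the other 3 libraries the order was mixed, with postconfluent Z1flag replicate 2 below postconfluent Z2flag replicate 1 in 26 members and below replicate 2 in 29. By role, the median of anaphase and exit genes relative to the subconfluent mean was -1.001 in postconfluent Z1flag replicate 1, against 0.54 in Z1flag replicate 2, 0.12 in Z2flag replicate 1 and 0.24 in Z2flag replicate 2. For kinetochore genes it was -1.47, against -0.93, -0.72 and -0.67 in the same order, below 0 in all 4 libraries.

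The difference of that library was set against transcript length. Exonic length, the union of annotated exons, runs from 1286 bases for UBE2C to 12807 bases for MKI67. Over the 55 members, Spearman's rho between exonic length and the difference of postconfluent Z1flag replicate 1 from the other 3 was 0.60, and the median difference was -1.12 in the 28 shorter and -0.70 in the 27 longer members. The same rho was -0.47 for postconfluent Z1flag replicate 2, 0.01 for Z2flag replicate 1 and -0.57 for Z2flag replicate 2. Over 18184 genes with a length, rho was 0.03 for postconfluent Z1flag replicate 1 and between -0.11 and 0.05 for the others. The confluence change over both lines had a rho of -0.34 with length, with a median of -0.46 in the shorter and -0.90 in the longer members. These values describe genes counted in the same libraries, not independent points, and the 4 library differences share their terms. The part of length, of read placement and of the high no-feature share of this library in its low mitotic counts was not tested. Subconfluent Z1flag replicate 1 had a no-feature share as high, and without both libraries 26 members fell and 7 rose over both lines, against 26.6% and 26.9% of all genes. Within Z1flag cells 21 then fell and 2 rose, against 13.1% and 13.0%, and within Z2flag cells 22 fell and 3 rose, against 22.6% and 23.7%.

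**Figure D5:**
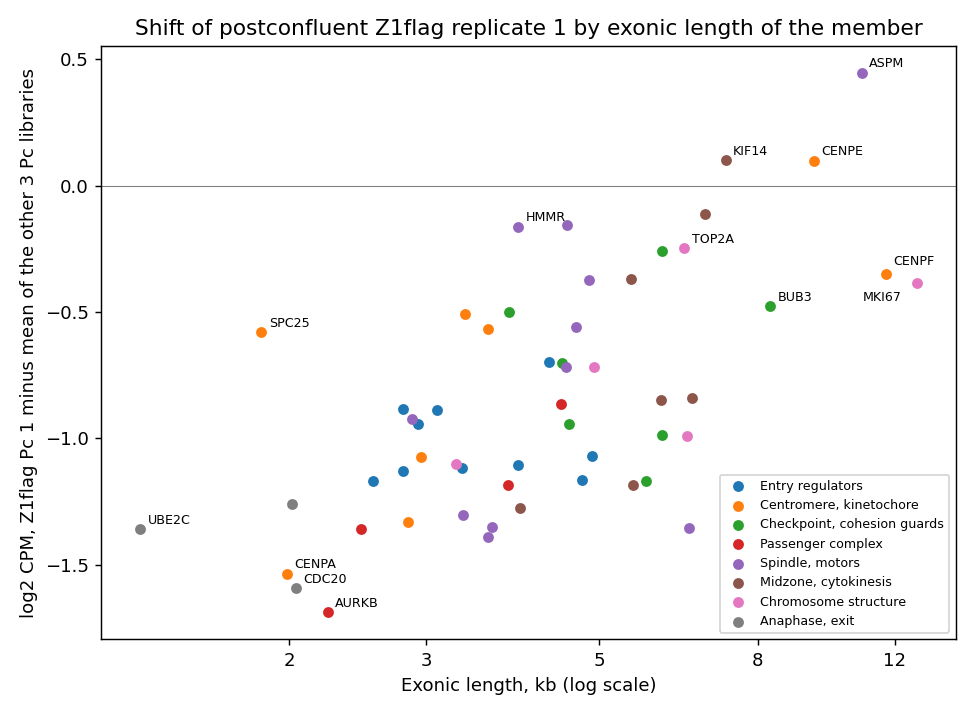
Difference in log2 CPM of postconfluent Z1flag replicate 1 from the mean of the other 3 postconfluent libraries (vertical axis) against exonic length in kb (horizontal axis, log scale) for the 55 members, coloured by role. Short members such as UBE2C, CENPA, CDC20 and AURKB lie among the lowest and the long members ASPM and CENPE lie above 0 (Spearman's rho 0.60). The short SPC25 (-0.58) and the longer TACC3 (-1.35) go the other way, and MKI67, the longest, lies at -0.38.

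The mitotic genes were lastly set beside the genes of the phase before. Of 30 DNA replication genes, 26 fell and 0 rose over both lines, with a median log2 change of -1.33, against -0.61 for the 55 members and -0.58 for 127 further mitotic genes, of which 76 fell and 7 rose. MCM10, which loads polymerase at origins, had 12.5 to 31.3 CPM in postconfluent and 95.7 to 115 CPM in subconfluent libraries, and PCNA, the sliding clamp, had 40.5 to 88.2 CPM in postconfluent and 226 to 248 CPM in subconfluent libraries. The replication median relative to the subconfluent mean was -2.27 in postconfluent Z1flag replicate 1 and -1.15 to -1.27 in the other 3, while the mitotic medians of those 3 were -0.40 to -0.46. Of 16 genes of the DREAM and MuvB complexes and their partners, 9 fell and 3 rose over both lines (median -0.51). TFDP1, a partner of E2F factors, had 43.0 to 57.7 CPM in postconfluent and 145 to 168 CPM in subconfluent libraries. RBL1, the p107 pocket protein of DREAM, had 25.9 to 28.9 CPM in postconfluent and 49.8 to 54.97 CPM in subconfluent libraries. LIN37, a MuvB subunit needed for repression, rose at a low level, with 2.04 to 2.47 CPM in postconfluent and 1.08 to 1.34 CPM in subconfluent libraries (log2 fold change 0.93, SE 0.25, edgeR adjusted p = 0.00935).

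Some members share reads or sequence with other genes. FOXM1 shares 781 exonic bases with ITFG2, NCAPG 1631 with LCORL, NCAPD2 486 with MRPL51, CDC25C 293 with FAM53C and CCNA2 254 with EXOSC9, each on the opposite strand, and the sources used here do not give the strand setting of the counting. On the same strand PRC1 shares 3181 exonic bases with AC068831.7, NUSAP1 1787 with AC087721.2 and BUB1B 457 with BUB1B-PAK6. UBE2C, PTTG1, CDC20, AURKA and NEK2 have annotated pseudogene copies and KIF4A has the paralog KIF4B. Pseudogene copies are also annotated for CCNB2, BUB1, BUB3, MAD2L1, SGO1, AURKB, CKAP2, NCAPD2, NCAPG and MKI67. The copies themselves had small counts (at most 426 reads over all libraries, for UBE2CP5, beside 40944 for UBE2C), and reads that match a member and its copy may be missing from both.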

How the data were processed

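RNA-seq was analysed in 8 libraries of Caco-2/15 cells, made as strand-specific, rRNA-depleted, paired-end libraries per the labels. The deposited values are raw counts per Ensembl gene ID. Alignment and counting involved STAR 2.5.2b, SAMtools and HTSeq with the hg38 build, per the submitters' processing notes. The annotation, the mode and the strand option of the counting: not given in the sources used here. Symbols came from a gene name table (57532 of 58302 IDs), and positions and exonic lengths from GENCODE v29. Reads counted to no feature (20.6% to 32.0%), ambiguous (5.39% to 7.86%) and not unique (6.59% to 10.3%) were left out of library sizes.

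All genes were fitted with edgeR 4.0.16 under R 4.3.3 (libraries scaled by TMM, filterByExpr with minimum count 10 and minimum total 15, robust quasi-likelihood F test, 4 group means, 4 residual degrees of freedom). The filter left 18240 genes, all 55 members among them, and Benjamini-Hochberg adjustment ran over all of these, with a threshold of 0.05. The 6 contrasts were postconfluent against subconfluent in each line and over both, the difference of these changes, and Z1flag against Z2flag in each state. The SE follows from the fold change and its F statistic. For log2 CPM, 2 was the prior count. The fit was checked on simulated counts.

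The members, roles, lists and the rule for naming genes were chosen with earlier results of these data known. Values in every library are given, per role, for the members of smallest and largest p over both lines, for the 3 smallest interaction p, for the 3 most and 3 least negative differences of postconfluent Z1flag replicate 1 from the other 3 postconfluent libraries (each relative to its line's subconfluent mean), and for MKI67, CDK1, FOXM1 and CCNB1. Of each other list, the 2 genes of smallest p with mean CPM of at least 1 are named, with the first of the other direction. The other settings tried were no filter, CPM of at least 5 in 2 libraries, a replicate block, only the libraries compared, each library left out, scaling by RLE or by the upper quartile, limma voom (limma 3.58.1) and DESeq2 1.42.0. Leaving out both Z1flag replicate 1 libraries was added after the data were seen. Plots came from matplotlib 3.10.9 and summaries from pandas 2.3.3 and numpy 2.4.6, under Python 3.11.15.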

Additional observations from a re-analysis of the deposited data

Results flagged for a closer look

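In the 4 libraries of each state, a value was marked when its gap to the nearest of the others, as a share of the whole range, exceeded Dixon's 95% critical value for 4 values. Of 49 groups tested 5 were marked. Chance marks about 1 in 20 of independent groups, but these groups share the same libraries. Some of the members tested, CDC20 among them, were named for their low values in postconfluent Z1flag replicate 1. The number marked can therefore not be judged against that share. Postconfluent Z1flag replicate 1 was the lowest of the postconfluent libraries in 4 of the 5 marked groups. These were CCNB1 (0.859), CDC20 (0.83), PTTG1 (0.887) and the median difference of the members from the subconfluent mean (0.934). Subconfluent Z2flag replicate 1 was the lowest of the subconfluent libraries for NCAPG (0.961), at 145 and 169 CPM in subconfluent Z2flag replicates 1 and 2 and 168 and 169 CPM in subconfluent Z1flag libraries. These groups pool both lines.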

How the results depend on the processing

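In the alternatives other than leaving out single libraries, the counts of members that fell stayed within 1.5 times of 30 in Z1flag cells and 30 over both lines. In Z2flag cells, 11 in place of 18 fell with upper-quartile scaling. Under that scaling the median gene stood at 0.18 over both lines, with 6248 genes called higher and 3822 called lower. Members that rose numbered 2 in place of 1 over both lines with RLE and upper-quartile scaling, with DESeq2 and with CPM of at least 5. These were NEK2 and PTTG1. With no filter PTTG1 alone rose over both lines, and with limma voom and with a replicate block 0 members rose. In Z2flag cells 2 members, NEK2 and PTTG1, rose with upper-quartile scaling, DESeq2 and no filter, and 3, with AURKB added, rose with only the libraries compared. Without both Z1flag replicate 1 libraries, 2 members rose in Z1flag cells, 3 in Z2flag cells and 7 over both lines. Deviations of same-numbered libraries correlated weakly between groups (from -0.18 to 0.178), which cannot tell whether such libraries came from 1 experiment. The replicate block gave 30 members that fell in Z1flag cells, 17 in Z2flag cells and 32 over both lines. The median difference of the members from the subconfluent mean was -0.33 with RLE and -0.25 with upper-quartile scaling in postconfluent Z2flag replicate 1, and -0.38 and -0.26 in postconfluent Z2flag replicate 2. The cause of these changes was not tested.

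Leaving out each library in turn gave 19 to 50 members that fell and 0 to 8 that rose in Z1flag cells, 5 to 24 and 0 to 4 in Z2flag cells, and 25 to 48 and 0 to 8 over both lines. It gave 0 to 15 lower and 0 to 0 higher for the difference of the changes, 0 to 37 lower and 0 to 0 higher for Z1flag against Z2flag in postconfluent cells, and 0 to 0 in subconfluent cells. The lowest counts came without subconfluent Z1flag replicate 1 in Z1flag cells, without subconfluent Z2flag replicate 2 in Z2flag cells (6 without postconfluent Z2flag replicate 1, 7 without replicate 2 and 10 without subconfluent Z2flag replicate 1) and without postconfluent Z2flag replicate 2 over both lines. Fewer libraries enter each of these fits, and the lone library of a group is assumed to vary like the other groups. Log2 fold changes changed sign and passed the test for CENPA, KIFC1, UBE2C, AURKB and NCAPD2 on leaving out a postconfluent Z1flag library. Over single omissions CENPA ran from -1.23 to 0.60 in Z1flag cells and from -0.42 to 0.49 over both lines. KIFC1 ran from -1.02 to 0.56 and from -0.42 to 0.37, UBE2C from -1.01 to 0.58 and from -0.37 to 0.42, and in Z1flag cells AURKB ran from -1.03 to 0.87 and NCAPD2 from -0.58 to 0.76, with the low ends without replicate 2 and the high ends without replicate 1. Over 24 members and 2400 values, 134 others changed sign without passing.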

Other observations

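Set per kilobase of exonic length, the level of the members ran over a wide range. UBE2C stood highest, at 162 CPM per kb in postconfluent and 153 CPM per kb in subconfluent libraries (means of 4). TOP2A had 116 CPM per kb in postconfluent and 132 CPM per kb in subconfluent libraries, and CDK1 97.8 in postconfluent and 107 in subconfluent ones. SGO1 stood lowest, at 3.20 CPM per kb in postconfluent and 8.10 CPM per kb in subconfluent libraries, with SPC25 at 5.94 in postconfluent and 15.6 in subconfluent ones. CCNB1 and CDK1, whose products act as 1 complex, stood at 74.4 and 97.8 CPM per kb in postconfluent and at 146 and 107 CPM per kb in subconfluent libraries. Securin (PTTG1) was higher after confluence on this scale, at 63.3 CPM per kb in postconfluent and 41.3 CPM per kb in subconfluent libraries. The change of PTTG1 over both lines did not pass in the main fit with all libraries (edgeR adjusted p = 0.0538). It passed with RLE or upper-quartile scaling, DESeq2, CPM of at least 5 or no filter on low counts.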
